A study of Mus musculus with 27 samples.

Results

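The muscle actin isoforms are the 4 genes Acta1, Acta2, Actc1 and Actg2, taken by gene symbol out of a table of counts for 57683 features. Transcripts of all 4 were measured in 27 hearts of the inbred strain C57BL/6J by sequencing of polyadenylated RNA. The libraries comprised 7 whole hearts of embryos at E13.5, a stage of mid-gestation, 6 ventricular apexes of unoperated mice aged 16 weeks and 6 of unoperated mice aged 6 weeks. A further 4 apexes came from mice of 12 weeks after 4 weeks of transverse aortic constriction (TAC), an operation that narrows the aorta and so raises the pressure against which the left ventricle pumps, and 4 from sham-operated mice of 12 weeks. All adult libraries were labelled male except 1 TAC library labelled female (replicate F1), and the embryos were labelled as of unknown sex.

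Actin monomers polymerise into the thin filaments along which myosin pulls. Actc1 encodes cardiac alpha-actin, the main actin of the adult heart muscle cell, and Acta1 encodes skeletal alpha-actin, which the heart makes alongside it and makes more of under load in rodents. Acta2 encodes smooth muscle alpha-actin, found in vessel walls, in myofibroblasts and in immature heart muscle, and Actg2 encodes enteric smooth muscle gamma-actin, the main actin of the gut wall. Genes of this family carry CArG boxes, the binding sequence of serum response factor, in their promoters.

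The files place all 4 genes on the minus strand of build mm9. Acta1 (ENSMUSG00000031972) spans chr8:126415669-126418651 with 7 exons and 1446 exonic bases, and Acta2 (ENSMUSG00000035783) spans chr19:34316014-34329810 with 9 exons and 1331 exonic bases. Actc1 (ENSMUSG00000068614) spans chr2:113873018-113879284 with up to 7 exons and 1618 exonic bases, and Actg2 (ENSMUSG00000059430) spans chr6:83462899-83486259 with up to 9 exons and 1562 exonic bases. No exonic base of any of them is shared with another listed feature, so overlap with neighbouring genes took no count from them.

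Similarity within the family could still have moved reads between members, so it was measured on reference transcripts. Over the longest open reading frame, Acta1 and Actc1 share 86.2% of their bases, Acta1 and Acta2 85.4%, and Acta2 and Actc1 82.5%. These differences are spread along the transcript. Of all stretches of 50 bases, 2.02% of those in Acta1 and 0.326% of those in Acta2 occur in a transcript of another gene, against 0 of 1568 in Actc1 and 0 of 1592 in Actg2. The cytoplasmic actins differ from them in this, since 45.6% of the stretches of Actg1 and 12.2% of those of Actb recur in transcripts of other genes. Their counts are uncertain, those of Actg1 more so. The read length is not given, and shorter stretches are shared more often. At 36 bases the shares were 3.26% in Acta1, 0.972% in Acta2, 0.19% in Actc1 and 0.444% in Actg2.

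The promoters are shown because they carry the sequence through which the family is known to be controlled. RefSeq promoter windows on GRCm38.p6, another build than that of the counts, were matched for 3 of the 4 genes, Acta1, Acta2 and Actc1. Each line gives the 250 bases before the transcription start, 5' to 3' on the minus strand, with capitals marking every CArG box and every such box with 1 mismatch among its 6 inner positions.
Acta1, chr8:123894776-123895025: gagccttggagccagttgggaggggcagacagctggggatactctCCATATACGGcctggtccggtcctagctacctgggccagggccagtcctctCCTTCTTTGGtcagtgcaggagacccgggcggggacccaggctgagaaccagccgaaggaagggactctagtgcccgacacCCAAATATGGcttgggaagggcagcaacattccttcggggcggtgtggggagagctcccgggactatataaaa
Acta2, chr19:34255374-34255623: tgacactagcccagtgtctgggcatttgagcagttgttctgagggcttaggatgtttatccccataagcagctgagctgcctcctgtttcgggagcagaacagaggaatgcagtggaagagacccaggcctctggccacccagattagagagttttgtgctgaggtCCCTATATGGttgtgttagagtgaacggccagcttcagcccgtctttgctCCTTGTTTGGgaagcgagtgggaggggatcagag
Actc1, chr2:114052876-114053125: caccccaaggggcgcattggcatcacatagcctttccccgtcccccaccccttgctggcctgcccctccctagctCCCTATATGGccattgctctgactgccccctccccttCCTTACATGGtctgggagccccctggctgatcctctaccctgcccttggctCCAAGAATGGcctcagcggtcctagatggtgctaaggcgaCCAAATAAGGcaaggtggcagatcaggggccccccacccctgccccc

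Acta1 and Actc1 each hold 1 exact CArG box, which begins 73 bases before the start in Acta1 and 47 bases before it in Actc1. Acta1 holds 2 further boxes with 1 inner mismatch, Actc1 holds 3, and Acta2 holds 2 and no exact one. The box CCCTATATGG occurs in both Acta2 and Actc1. An exact box was present in 1.47% of 32851 RefSeq promoter windows of this length, and 3 or more boxes with at most 1 mismatch in 0.0457%. The M-CAT motif CATTCC, bound by TEAD factors and searched on both strands, occurs once in Acta1, beginning 46 bases before the start, once in Acta2 on the opposite strand, and not in the Actc1 window, against 12.6% of all windows. The CArG box reads alike on both strands, and no M-CAT match overlapped one. These matches describe the sequence and were not tested as sites.

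Depth differed between groups. Total counts ran between 7543375 and 12646039 in E13.5 hearts, 2164604 and 2642307 in 16-week hearts, 2092270 and 2682955 in 6-week hearts, 10411417 and 11846819 in TAC hearts and 7958592 and 11561952 in sham hearts. The unoperated adults were also the only libraries with another quality encoding in their labels, so that stage, encoding and depth cannot be told apart against them, whereas the sham libraries share encoding and depth with both TAC and E13.5. Of 19 libraries labelled male, 7 held at most 3 counts of Y-linked genes, and the library labelled female held Y-linked counts. Results that rest on those 8 libraries are given without them where that matters. Cardiomyocyte markers summed to at least 37585 CPM (a gene's counts scaled to the same library total) of the library total in every heart. Below, a level is CPM, and a fold change comes from edgeR's quasi-likelihood test with TMM scaling, called at a Benjamini-Hochberg adjusted p under 0.05 over all features tested.

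Skeletal alpha-actin was higher in every TAC heart than in any other heart of the series. Acta1 had 11274, 7943 and 4727 CPM in TAC replicates 1, 2 and 3 and 6323 CPM in the TAC library labelled female, against 355, 245, 363 and 323 CPM in sham replicates 1 to 4. The lowest TAC heart thus stood far above the highest sham heart, and 16.9% of features tested had all TAC hearts above all sham hearts. The means were 7567 ± 2798 CPM in TAC hearts and 322 ± 53.9 CPM in sham hearts (SD, n = 4 each). The log2 fold change was 4.56 (SE 0.35), which is 23.55-fold, with an edgeR adjusted p of 0.000169, and 38% of the 14555 features tested were called in either direction. Of these features, 4 had a larger fitted increase. Without the hearts against their sex label, which left 2 in each group, the log2 fold change was 4.85. TAC hearts also varied more among themselves, with a coefficient of variation of 37% against 16.7% in sham hearts. In bulk tissue, more cells of a type and more RNA per cell cannot be told apart.

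Skeletal muscle tissue is another place where Acta1 is abundant, so its markers were read beside this result. Summed over 13 markers they reached 135 to 254 CPM in TAC hearts and 50.3 to 67.4 CPM in sham hearts. Nearly all of the TAC sum was Mybpc2, a myosin-binding protein, at 165 ± 54.6 CPM in TAC hearts and 55.1 ± 7.25 CPM in sham hearts (SD, n = 4 each). Of the 4 markers that could be tested, Mybpc2 and Tnnt3, fast skeletal troponin T, were called higher and none lower. Tnnt3 held 15 to 28 counts per TAC heart and 3 to 11 per sham heart. It passed the filter on low counts through the TAC libraries, so that its call had to follow. Tnnt3 averaged 2.15 CPM in TAC hearts and 0.681 CPM in sham hearts, and Tnni2, fast skeletal troponin I, averaged 1.18 CPM in TAC hearts and 1.93 CPM in sham hearts. Tnnc2, Myod1 and Myog were at 0 counts in all 4 TAC hearts, and Tnnc2, Pvalb and Myog in all 4 sham hearts. The part of these transcripts in the Acta1 result was not tested.

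Cardiac alpha-actin was higher in TAC hearts by a much smaller amount. Actc1 had 14623, 16317, 15437 and 15355 CPM in TAC replicates 1, 2, 3 and F1, against 12614, 12944, 12313 and 12421 CPM in sham replicates 1 to 4. All TAC hearts were above all sham hearts, as was so for 16.9% of features tested. The log2 fold change was 0.30 (SE 0.07, edgeR adjusted p = 0.00277), a 1.23-fold rise, and a higher call was made for 19.6% of features. The call was lost when all 27 libraries shared one estimate of the spread (adjusted p = 0.0977). It was also lost when the replicate number was fitted as a block.

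The smooth muscle actins gave no call between TAC and sham hearts. Acta2 had 216, 209, 398 and 324 CPM in TAC replicates 1, 2, 3 and F1, against 284, 309, 318 and 293 CPM in sham replicates 1 to 4. Thus 2 TAC hearts lay below and 2 above the whole sham range. Its log2 fold change was -0.08 (SE 0.20, edgeR adjusted p = 0.793). The 2 higher TAC hearts were those whose Y-linked counts went against their label, and without such libraries, which left 2 hearts in each group, the log2 fold change was -0.42 (edgeR adjusted p = 0.000734).

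Cells that carry Acta2 were followed through markers. Smooth muscle markers, 9 genes, summed to 815 to 982 CPM in TAC hearts and 833 to 965 CPM in sham hearts. Of the 9, 1 was called higher. Most of this sum was Smtn, smoothelin, at 300 CPM in TAC and 311 CPM in sham hearts, and Synpo2, at 360 and 345 CPM. The sum thus says little about the other markers. Myofibroblast markers, activated matrix-making fibroblasts that carry Acta2 in scars, summed to 1544 to 3610 CPM in TAC hearts and 573 to 821 CPM in sham hearts, with 4 of 6 tested called higher. Fibroblast markers summed to 1944 to 4147 CPM in TAC hearts and 987 to 1219 CPM in sham hearts. Of these 8 markers 5 were called higher, and 3, Dcn, Dpt and Lum, were not called. Much of the myofibroblast and fibroblast sums was collagen, since Col1a1 and Col3a1 stand in both lists. These averaged 762 and 1044 CPM in TAC hearts and 203 and 287 CPM in sham hearts. Replicate 3, the TAC heart with the highest Acta2, also had the highest Postn, a myofibroblast marker chosen after its values were seen, above the 68.5 to 130 CPM of the other TAC hearts. The part of these cells in the Acta2 levels was not tested. Actg2 held 9 to 22 counts per library in TAC hearts and 7 to 21 in sham hearts, and its log2 fold change was 0.14 (SE 0.34, edgeR adjusted p = 0.77).

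**Figure D1:**
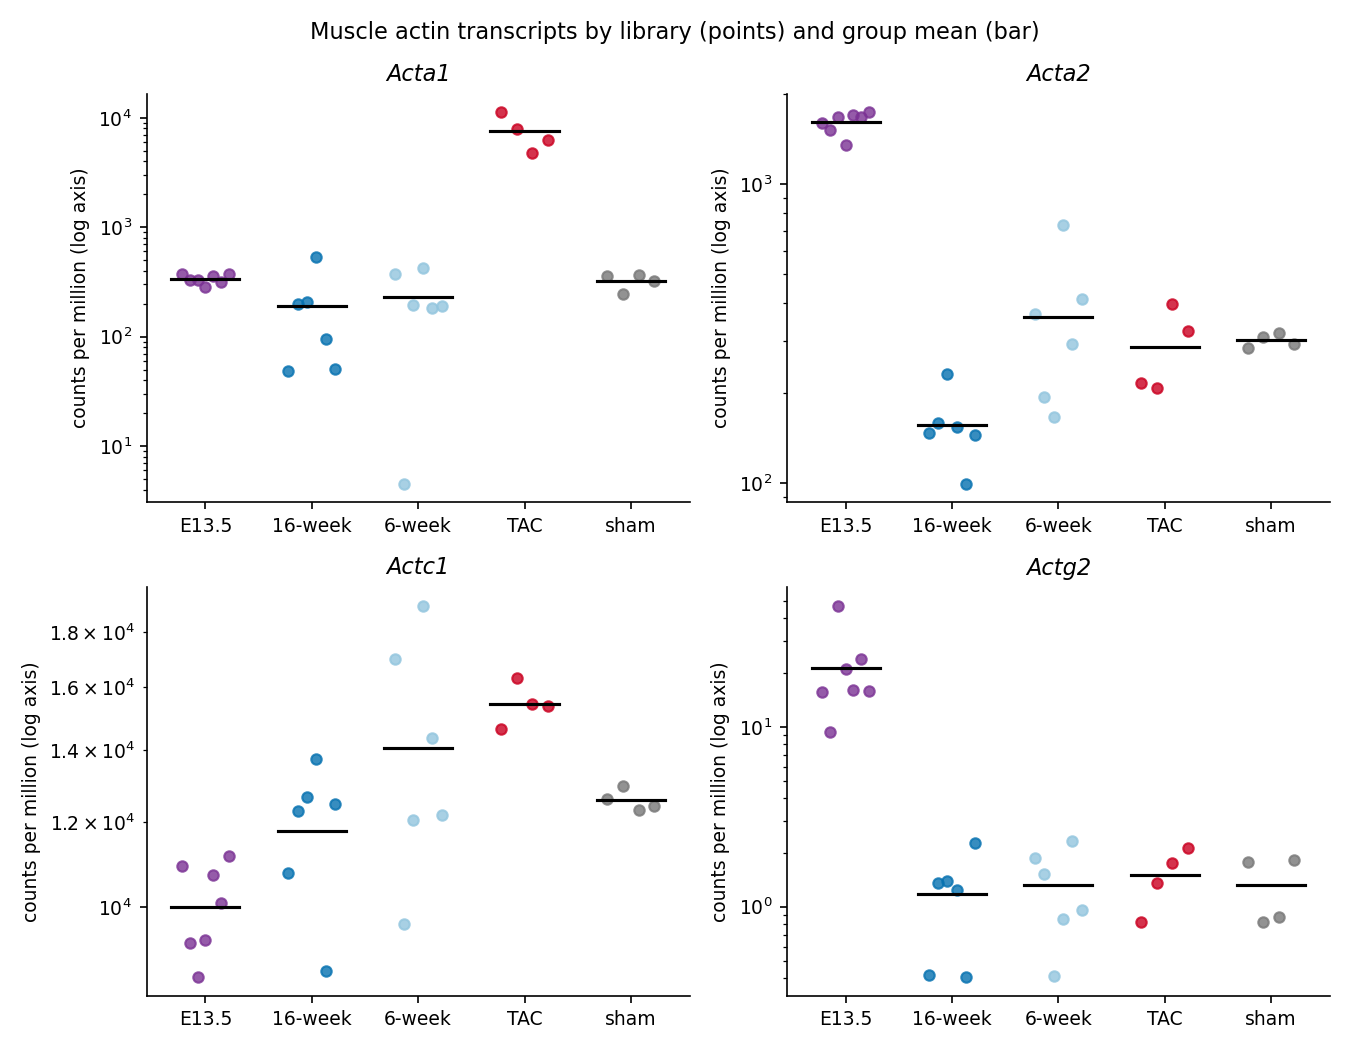
CPM of the 4 muscle actins (log axis) in each library, by group; points are libraries and bars group means. Acta1 lies between 4727 and 11274 CPM in TAC hearts, above all others, and Acta2 and Actg2 are highest in E13.5 hearts.

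The balance between the striated actins was read inside each library, where depth and scaling cancel. Per kilobase, TAC replicates 1, 2, 3 and F1 held 86.3, 54.5, 34.3 and 46.1 Acta1 transcripts per 100 of Actc1, against 3.15, 2.12, 3.30 and 2.91 in sham replicates 1 to 4. The means were 55.3 ± 22.3 in TAC hearts and 2.87 ± 0.526 in sham hearts (SD, n = 4 each). On the log2 scale the ratio of counts was -1.10 in TAC hearts and -5.31 in sham hearts, a difference of 4.21. A two-sided exact permutation test gave p = 0.0286, the smallest that 4 against 4 allows, and 0.0381 after Benjamini-Hochberg adjustment over the 4 comparisons of this ratio. With any 1 library left out, the adjusted p was 0.0762, and the difference stayed between 3.96 and 4.41.

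Shares of the summed muscle actin per kilobase give the same libraries as a composition. Acta1 made up 45.9%, 34.9%, 24.9% and 31.0% in TAC replicates 1, 2, 3 and F1, against 2.97%, 2.02%, 3.10% and 2.75% in sham replicates 1 to 4. Actc1 made up 64.3% ± 8.26 in TAC hearts and 94.5% ± 0.520 in sham hearts, and Acta2 made up 1.49% ± 0.636 in TAC hearts and 2.75% ± 0.149 in sham hearts (SD, n = 4 each). The lower share of Actc1 in TAC hearts thus stood beside a higher, not a lower, level of its transcript. All 4 actins together were 2.33% ± 0.248 of all counts in TAC hearts and 1.32% ± 0.0232 in sham hearts.

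**Figure D2:**
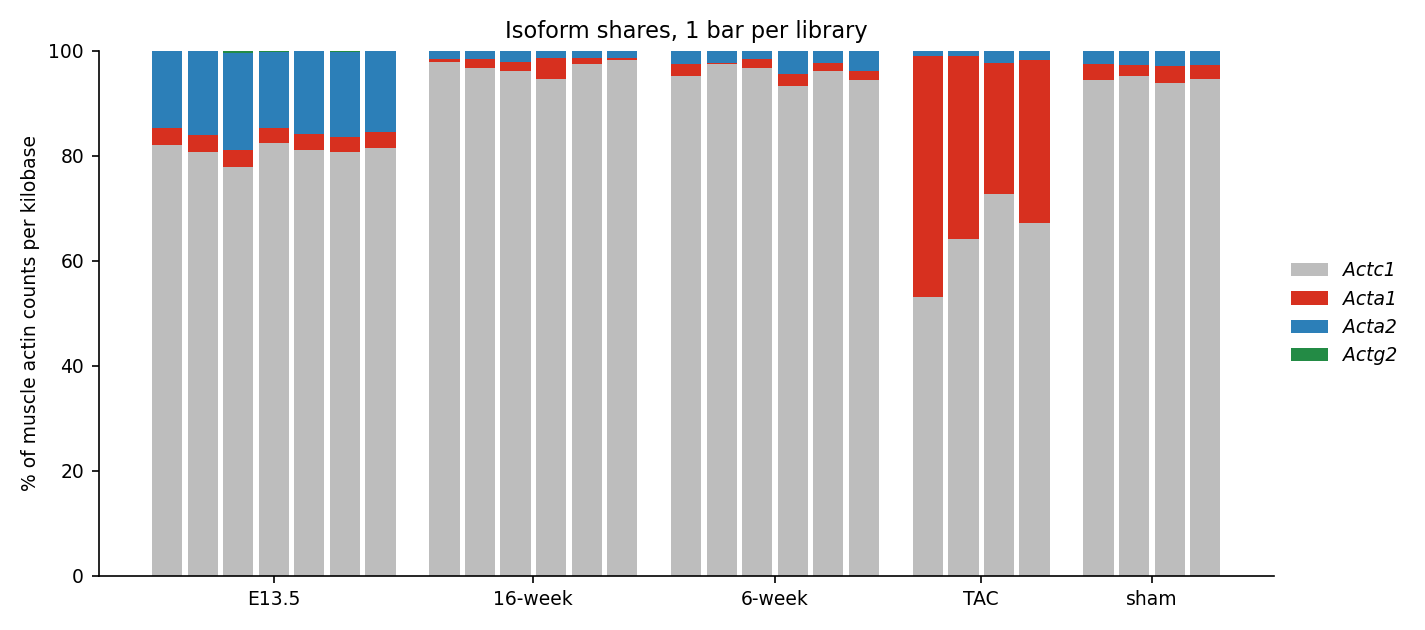
Share of each isoform in the summed muscle actin counts per kilobase, 1 stacked bar per library. Acta1 takes 24.9% to 45.9% in TAC hearts and 2.02% to 3.10% in sham hearts, and Acta2 takes 14.5% to 18.4% at E13.5.

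Genes that act on actin were counted beside the isoforms. Over all features, 19.6% were called higher and 18.4% lower in TAC hearts, against which the counts below are to be read. Of 5 genes known to respond to load, all 5 were called higher in TAC hearts, with a median log2 fold change of 1.99 against 0.000467 over all features. The gene lists were chosen with earlier results of these data known, so such a count is not independent support. Nppa, the atrial natriuretic peptide, rose by 3.77 (SE 0.14), Myh7, the slow beta-myosin heavy chain, by 2.44 (SE 0.29) and Ankrd1, a titin-binding stress protein, by 1.99 (SE 0.35), all on the log2 scale with edgeR adjusted p of 0.00571 or lower. Myh7 averaged 2122 CPM in TAC and 392 CPM in sham hearts, but 2458 CPM at 6 weeks and 2766 CPM at 16 weeks, in unoperated libraries of another depth and encoding. Its TAC mean was thus above that of sham hearts only. Nppa, Nppb, Ankrd1 and Xirp2 had higher means in TAC hearts than at either unoperated age. Nppa is also an atrial marker, and Nppa and Myl4 were the 2 called higher of 3 atrial markers tested. Myl4 averaged 4.79 CPM in TAC hearts and 1.53 CPM in sham hearts, a log2 fold change of 1.66 (edgeR adjusted p = 0.00443). Myl7 averaged 0.745 CPM in TAC hearts and 0.209 CPM in sham hearts. Sln was at 0 in all 27 libraries, whole embryonic hearts included, so its 0 here says nothing about atrial tissue. The fold change of Acta1, 4.56 on the same scale, was the largest of these values, and the differences between genes were not tested. The order of TAC hearts differed between genes: Acta1 was highest in replicate 1, Nppa in replicate 3 at 3333 CPM, and Nppb, Myh7 and Ankrd1 in replicate 2. The TAC library labelled female had the lowest Myh7, 1114 CPM against 2284 to 2742 CPM in the others, while its Acta1 was above that of replicate 3.

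**Figure D3:**
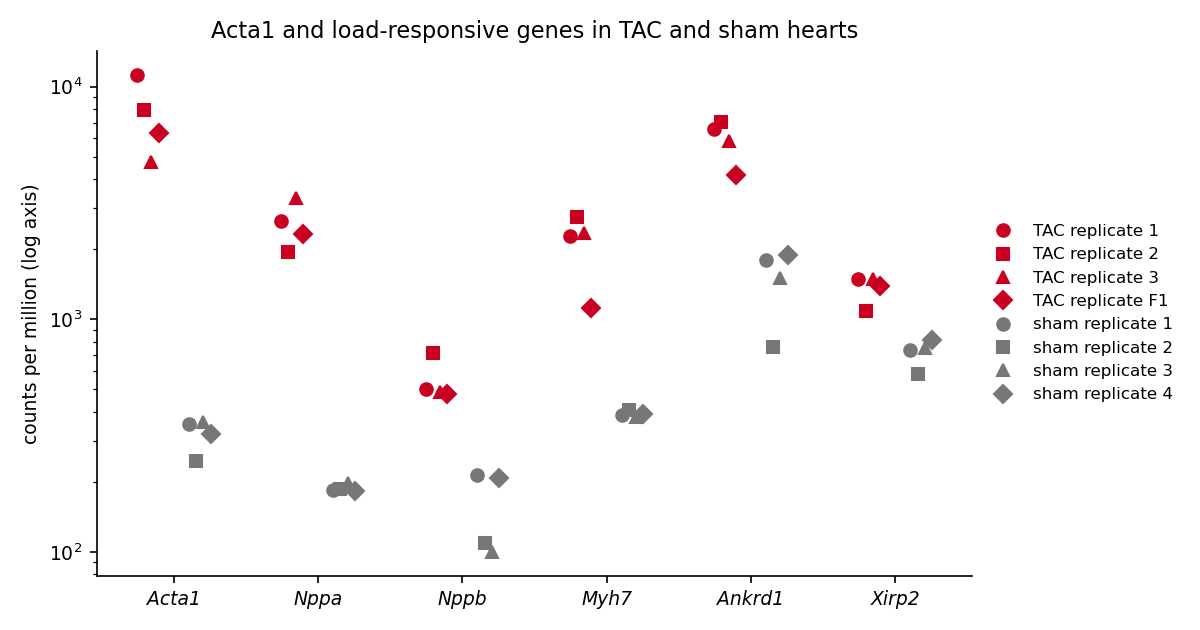
CPM (log axis) of Acta1 and 5 load-responsive genes in each TAC and sham library, with 1 marker shape per replicate. Every TAC heart is above every sham heart for all 6 genes, as is so for 16.9% of all features tested. The genes were chosen with earlier results of these data known. The order of the TAC hearts differs from gene to gene.

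Filament partners were called in both directions. Of 18 tested genes for tropomyosins, filament length and anchoring, 8 were called higher and 2 lower, with a median log2 fold change of 0.14. Xirp2, an actin-binding repeat protein of the cell junctions that is also 1 of the 5 load-responsive genes, rose by 0.92 (SE 0.12), Tpm2, beta-tropomyosin, by 0.88 (SE 0.09) and Tpm4 by 0.81 (SE 0.10). Among 17 turnover and capping genes, 8 were called higher and none lower, with a median of 0.25. Capg, which caps filament ends, rose by 1.60 (SE 0.16), Tmsb10, a monomer-binding thymosin, by 1.28 (SE 0.14) and Wdr1, a cofilin cofactor, by 0.54 (SE 0.06). Of 9 formins, which nucleate filaments, 2 were called higher and 1 lower, shares near those over all features. Fmnl3 rose by 0.42 and Fmnl1 by 0.35, and Fhod3, the sarcomeric formin, fell by 0.30 (SE 0.07).

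The folding machinery for new actin was counted as well. Of 15 chaperonin, prefoldin and maturation genes, 8 were called higher and none lower, with a median of 0.23. Vbp1 rose by 0.87 (SE 0.20) and Pfdn1 by 0.55 (SE 0.08), both prefoldin subunits, and Cct4, a chaperonin subunit, by 0.52 (SE 0.11). Among 16 regulators that act with serum response factor, 7 were called higher and 3 lower, with a median of 0.22. Abra, a muscle activator of serum response factor signalling, rose by 1.13 (SE 0.17), Csrp3, the muscle LIM protein, by 0.66 (SE 0.08) and Csrp2 by 0.65 (SE 0.10). Srf itself, chosen after its values were seen, averaged 267 ± 21.3 CPM in TAC hearts and 196 ± 11.5 CPM in sham hearts, and rose by 0.45 (edgeR adjusted p = 0.000282). Its cofactor Myocd, chosen in the same way, averaged 133 ± 8.35 CPM in TAC hearts and 177 ± 9.99 CPM in sham hearts (SD, n = 4 each), and fell by 0.41 (edgeR adjusted p = 0.000111). Of the cytoplasmic actins, Actb rose by 0.55 (SE 0.085, edgeR adjusted p = 0.000136), and Actg1 had a log2 fold change of -0.54 (SE 0.42, edgeR adjusted p = 0.355).

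Embryonic hearts stood apart in the smooth muscle actins. Against the unoperated adults, Acta2 rose, Actc1 fell, Acta1 gave no call and Actg2 was seen at more than trace level in the embryos alone, in a comparison in which 83.8% of the 12766 features tested were called, 44.1% higher and 39.7% lower. With shares this large, a call alone sets no gene apart. TMM scaling set the scale of these fold changes. Plain library totals added 0.634 to the median log2 fold change against the unoperated adults and 0.827 against sham hearts, and the fold changes of the actins are given on both scales. The embryonic samples are whole hearts, and atrial markers summed to 3722 to 4672 CPM in them and 132 to 1342 CPM in the apexes of unoperated adults. Most of the adult sum was Nppa, at 945 CPM at 16 weeks and 561 CPM at 6 weeks, against 1501 CPM at E13.5. Myl7, another of these markers, averaged 0.280 CPM at 16 weeks, 3.79 CPM at 6 weeks and 1351 CPM at E13.5. The part of atrial tissue in these results was not tested.

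Acta2 had a lowest, median and highest level of 1352, 1675 and 1741 CPM in the 7 E13.5 hearts, against 99.9, 151 and 232 CPM in the 6 hearts of 16 weeks and 167, 331 and 732 CPM in the 6 hearts of 6 weeks. Every embryonic heart was above every adult heart, as was so for 48.7% of features tested. The log2 fold change against both adult ages was 2.14 (SE 0.22, edgeR adjusted p = 9.21e-08), or 2.77 with library totals. Smooth muscle markers summed to 793 to 917 CPM at E13.5 and 822 to 1007 CPM in unoperated adults. In the adults most of the sum was Smtn and Synpo2. Of the 9 markers, 4 were called higher and 5 lower. Cnn1, calponin, which binds smooth muscle actin, averaged 300 CPM at E13.5, against 2.69 CPM at 16 weeks and 3.59 CPM at 6 weeks. It passed the filter on low counts through the E13.5 libraries, so its call had to follow. Tagln, transgelin, averaged 18.4 CPM at E13.5, against 3.21 CPM at 16 weeks and 5.32 CPM at 6 weeks. Myh11, the smooth muscle myosin, averaged 38.0 CPM at E13.5, against 114 CPM at 16 weeks and 130 CPM at 6 weeks, and Smtn, smoothelin, was lower too. Myofibroblast markers, which the embryonic mesenchyme shares, summed to 6998 to 11020 CPM at E13.5 and 520 to 1135 CPM in unoperated adults. The part of either marker list in Acta2 was not tested.

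Actg2 had 9.32, 16.1 and 47.2 CPM as its lowest, median and highest level at E13.5, on 84 to 427 counts per library, against 1 to 6 counts in each unoperated adult heart. No embryonic heart overlapped an adult one. The adult mean was 1.25 CPM. The gene passed the filter on low counts through the E13.5 libraries, so that its call had to follow, and its fitted log2 fold change of 3.42, or 4.05 with library totals, rests on those few adult counts. It remained a minor transcript, at 0.183% ± 0.121 of summed muscle actin per kilobase (SD, n = 7). Its highest embryonic library, replicate 3, also held the highest Myh11, 89.8 CPM against 8.88 to 66.7 CPM in the other 6, and the highest summed fibroblast markers, 7075 CPM against 3584 to 5181 CPM.

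Actc1 had 8618, 10086 and 11155 CPM as its lowest, median and highest level at E13.5, against 8733, 12389 and 13713 CPM at 16 weeks and 9647, 13268 and 19045 CPM at 6 weeks. These ranges overlapped. The log2 fold change was -0.99 (SE 0.12, edgeR adjusted p = 1.28e-07), and -0.35 with library totals (edgeR adjusted p = 0.00701). Summed cardiomyocyte markers, of which Actc1 was not one, were 37585 to 50064 CPM at E13.5 and 108459 to 124710 CPM in unoperated adults. Erythroid markers, the red cell genes of the embryo's blood, summed to 18309 to 68189 CPM at E13.5 and to 129 to 534 CPM in unoperated adults. How far muscle and blood content set the level was not tested.

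Acta1 lay in a narrow band at E13.5, with a lowest, median and highest level of 285, 330 and 372 CPM, and in a wide one in adults. It had 48.5, 148 and 536 CPM at 16 weeks and 4.54, 192 and 425 CPM at 6 weeks. The embryonic hearts fell within the adult range, and the log2 fold change was 0.07 (SE 0.50, edgeR adjusted p = 0.903), or 0.71 with library totals (edgeR adjusted p = 0.183). The coefficient of variation was 9.31% at E13.5, against 96.7% at 16 weeks and 66.3% at 6 weeks.

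The E13.5 hearts were next set against sham hearts, which match them in depth and encoding, and 76.3% of 18677 features were called, 40.7% higher and 35.6% lower. The same E13.5 libraries enter both comparisons. Acta2 was again higher, by 1.59 (SE 0.07, edgeR adjusted p = 8.37e-14) on the log2 scale, or 2.42 with library totals. Every E13.5 heart was above every sham heart for Acta2 and for Actg2, as was so for 59.2% of features. Acta2 had means of 1610 ± 135 CPM at E13.5 (n = 7) and 301 ± 15.2 CPM in sham hearts (SD, n = 4). Actg2 was higher by 3.11 (SE 0.55, edgeR adjusted p = 0.000441), or 3.95 with library totals. It held 7 to 21 counts per sham heart and passed the filter on low counts through the E13.5 libraries, so that its call had to follow. Actc1 was lower, with a log2 fold change of -1.16 (SE 0.07, edgeR adjusted p = 1.94e-11), or -0.33 with library totals, and every E13.5 heart had fewer CPM than every sham heart, as was so for 14.7% of features.

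The direction for Acta1 depended on the scale. Its levels overlapped, 285 to 372 CPM at E13.5 and 245 to 363 CPM in sham hearts. Its log2 fold change was -0.76 (SE 0.11, edgeR adjusted p = 5.83e-06) with TMM scaling and 0.07 (SE 0.10, edgeR adjusted p = 0.493) with library totals. The call was also lost when all 27 libraries shared one estimate of the spread (-0.67, edgeR adjusted p = 0.289). The ratio within a library needs neither. At E13.5 the 7 hearts held 3.42 to 4.25 Acta1 transcripts per 100 of Actc1 per kilobase, against 2.12 to 3.30 in sham hearts. The ranges did not overlap, and the log2 ratio of counts was -4.89 at E13.5 and -5.31 in sham hearts. Their difference of 0.41 had p = 0.00606 in a two-sided exact permutation test, the smallest that 7 against 4 allows, and 0.0121 after adjustment over the 4 comparisons. Without the sham hearts against their sex label the difference was 0.32, and 7 against 2 hearts allow no exact p under 0.0556. The 2 sham hearts left, at 2.91 and 3.15 Acta1 per 100 Actc1, were still below all 7 embryonic hearts.

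Against the unoperated adults the ratio was higher at E13.5 too. Their log2 ratio averaged -6.47 at 16 weeks and -6.72 at 6 weeks, against -4.89 at E13.5, a difference of 1.70 from both ages pooled with p = 0.000318 in a two-sided exact permutation test and 0.00127 after adjustment. The ranges overlapped through 16-week replicate 4, at 4.37 Acta1 per 100 Actc1 per kilobase, above all 7 embryonic hearts. The other 11 unoperated hearts held 0.0527 to 2.50. The TAC hearts, at 34.3 to 86.3, were above every E13.5 heart.

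**Figure D4:**
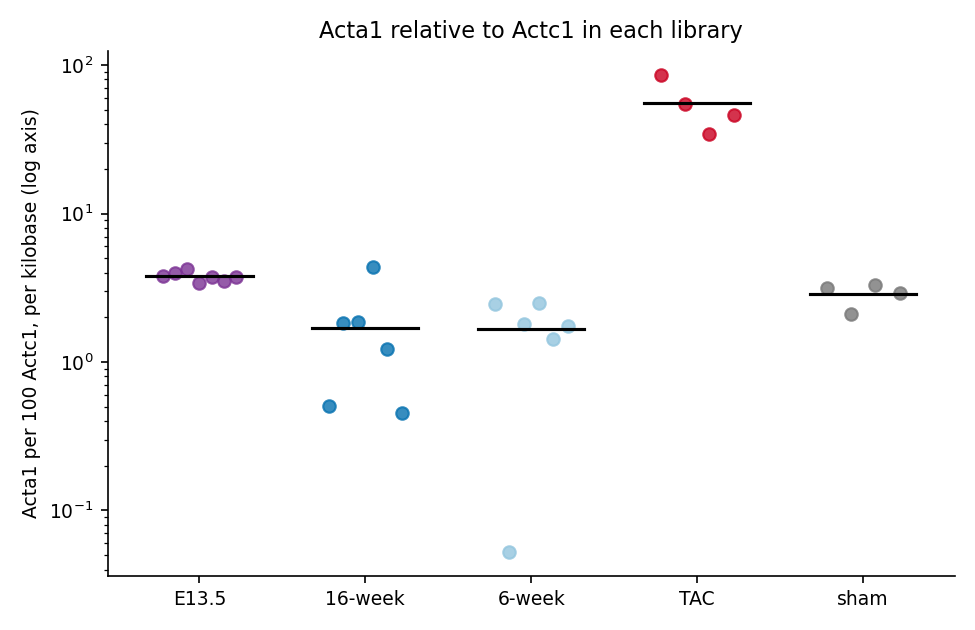
Acta1 transcripts per 100 of Actc1, per kilobase of exon (log axis), in each library; bars are group means. TAC hearts lie at 34.3 to 86.3, E13.5 hearts at 3.42 to 4.25 and sham hearts at 2.12 to 3.30, and the unoperated adults spread most widely.

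By composition, E13.5 hearts held 80.9% ± 1.51 Actc1, 15.9% ± 1.31 Acta2 and 3.05% ± 0.180 Acta1 per kilobase (SD, n = 7). The 16-week hearts held 96.8% ± 1.34 Actc1, 1.55% ± 0.313 Acta2 and 1.63% ± 1.36 Acta1, and the 6-week hearts 95.5% ± 1.56, 2.86% ± 1.04 and 1.58% ± 0.845 of the same 3 (SD, n = 6 each). The lowest embryonic share of Acta2, 14.5%, was above the highest in any adult library, 4.36%. Summed over the 4 genes, muscle actin was 1.20% of all counts at E13.5, 1.21% at 16 weeks and 1.46% at 6 weeks.

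Actin's partners changed with stage in both directions, and for many the direction turned with the scale. Of 18 tropomyosin, filament length and anchoring genes, 5 were called higher and 12 lower at E13.5 than in unoperated adults with TMM scaling, and 8 higher and 8 lower with library totals. Xirp2 was lower by the widest margin, with 2.84 CPM at E13.5 and 810 CPM in unoperated adults. Tmod4, a skeletal tropomodulin, had a log2 fold change of -3.34. Xirp2 and Tmod4 passed the filter on low counts through the adult libraries, so their calls had to follow. Lmod2, a leiomodin that elongates thin filaments, had 142 CPM at E13.5 and 852 CPM in unoperated adults, a log2 fold change of -3.20. Of 17 turnover and capping genes, 9 were called higher and 8 lower, and 10 higher and 2 lower with library totals. Gsn, the severing protein gelsolin, and Twf2, a twinfilin, were lower by log2 fold changes of -3.40 and -2.71. Tmsb10 was higher by 4.28 (SE 0.13), with 94.2 CPM at E13.5 and 3.10 CPM in unoperated adults. Tmsb10, Tmsb4x and Capza1, all counted as higher, passed the filter on low counts through the E13.5 libraries, so their calls had to follow.

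Among formins, Fmnl1 and Fhod3 were lower at E13.5, with log2 fold changes of -2.60 and -2.46. Diap3 averaged 20.9 CPM at E13.5 and 0.267 CPM in unoperated adults, and passed the filter through the embryonic libraries, so its call had to follow. In all, 3 of 10 were called higher and 5 lower, and 7 higher and 2 lower with library totals. Of 15 folding genes, 9 were called higher and 5 lower, and 13 higher and 1 lower with library totals. Cct6a and Tcp1, chaperonin subunits, were higher by 0.74 and 0.68, and Nat6, the actin N-acetyltransferase, was lower at -0.94. Of 16 regulators around serum response factor, 6 were called higher and 6 lower, and 11 higher and 4 lower with library totals. Tead2, a TEAD factor, was higher by 4.69 (SE 0.10), Csrp2, a smooth muscle LIM protein, by 2.72 (SE 0.12), and Fhl2, a LIM protein of adult heart muscle, was lower at -4.66 (SE 0.09). Both cytoplasmic actins were called higher, Actb by 1.31 (SE 0.07) and Actg1 by 1.17 (SE 0.16).

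Load-responsive genes went both ways by stage. Of the 5, 1 was called higher and 3 lower at E13.5 than in unoperated adults, and 2 higher and 1 lower with library totals. Myh7 was higher, with 12020 CPM at E13.5 and 2612 CPM in unoperated adults. Xirp2 and Nppb were lower, with log2 fold changes of -8.79 and -1.48, the call for Nppb being lost with library totals (edgeR adjusted p = 0.055).

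Against sham hearts, the lists were again called in both directions at E13.5. Among tropomyosin, filament length and anchoring genes, 5 of 19 were called higher and 14 lower, with the largest changes in Xirp2, Lmod2 and Tmod4. Turnover and capping genes gave 8 higher and 7 lower of 17, with Gsn at -3.49, Tmsb10 at 2.87 and Twf2 at -2.85. Formins gave 2 higher and 6 lower of 10, folding genes 8 higher and 6 lower of 15, and serum response factor regulators 8 higher and 7 lower of 16. With library totals these became 8 and 9, 11 and 2, 8 and 2, 11 and 0, and 12 and 4, higher and lower in each list. Nppa, at 1501 CPM in E13.5 hearts and 187 CPM in sham hearts, and Myh7, at 12020 CPM in E13.5 hearts and 392 CPM in sham hearts, were the 2 load-responsive genes called higher. The other 3 were called lower, Xirp2 with a log2 fold change of -8.85, Nppb of -2.13 and Ankrd1 of -1.84.

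**Figure D5:**
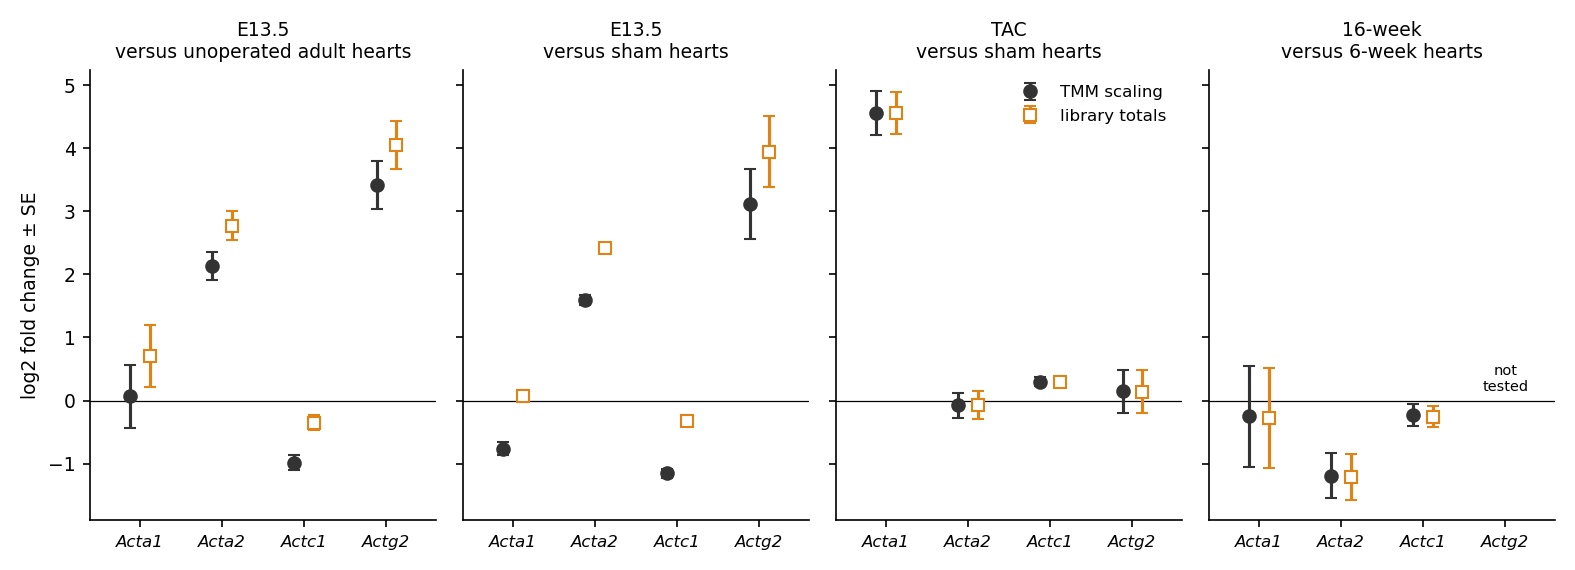
Log2 fold change with its SE for each muscle actin in the 4 comparisons, with TMM scaling (filled circles) and with library totals (open squares). The scales part in the E13.5 comparisons, where Acta1 against sham hearts is -0.76 on one and 0.07 on the other.

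Between the adult ages no muscle actin was called, in a comparison that called 2.51% of 10394 features, 1.32% higher and 1.19% lower. None kept the ages apart, as 0.991% of features did with all 16-week hearts higher and 1.03% with all lower. The widest difference was in Acta2, which averaged 156 ± 42.9 CPM at 16 weeks and 361 ± 205 CPM at 6 weeks (SD, n = 6 each). The ranges overlapped, 99.9 to 232 CPM at 16 weeks and 167 to 732 CPM at 6 weeks. Its log2 fold change was -1.19 (SE 0.36), and 13 features fell further, yet the edgeR adjusted p was 0.128. It was 0.0326 with DESeq2 and 0.0204 when all 27 libraries shared one estimate of the spread. Smooth muscle markers summed to 875 to 970 CPM at 16 weeks and 822 to 1007 CPM at 6 weeks, and none of the 7 tested was called. Smtn and Synpo2 again made up most of the sum.

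Acta1 averaged 190 ± 184 CPM at 16 weeks and 229 ± 152 CPM at 6 weeks, and Actc1 11776 ± 1767 CPM at 16 weeks and 14044 ± 3478 CPM at 6 weeks (SD, n = 6 each). Their log2 fold changes were -0.25 (SE 0.80, edgeR adjusted p = 0.916) and -0.23 (SE 0.17, edgeR adjusted p = 0.542). The log2 ratio of Acta1 to Actc1 differed by 0.25 between the ages (two-sided exact permutation p = 0.855, also 0.855 after adjustment). The sign of that difference rested on single hearts, since it was -0.62 without 6-week replicate 2 and -0.11 without 16-week replicate 4 (adjusted exact permutation p = 0.32 and 0.926). Actg2, at 1 to 6 counts per library in both ages, did not pass the filter on low counts and was not tested. Of the partners, Tpm3 was called higher, by 0.80 (SE 0.15), and Nebl, a Z-disc nebulette, Tcp1, Pfdn1 and Fhl2 were called lower, with log2 fold changes between -0.47 and -0.34. No turnover gene of 14, no formin of 9 and no load-responsive gene of 5 was called.

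Acta1 was the most uneven of the striated actins among unoperated hearts. The 6-week hearts held 375, 4.54, 193, 425, 182 and 192 CPM in replicates 1 to 6, and the 16-week hearts 48.5, 200, 209, 536, 95.4 and 50.3 CPM. Replicate 2 of 6 weeks held 12 counts, with an exact 95% Poisson interval of 6.20 to 21.0 that covers counting error only, where its neighbours held 401 to 1005. The same heart had the lowest Nppb of its age, 3.78 CPM against 29.9 to 252 CPM, and the lowest Nppa, 75.3 CPM against 219 to 980 CPM. Its fibroblast markers, at 2380 CPM, and macrophage markers, at 375 CPM, were the highest of the 6-week hearts, against 1289 to 1861 CPM and 219 to 314 CPM in the other 5. Its skeletal muscle markers were the lowest, at 68.9 CPM, and its cardiomyocyte markers, at 117687 CPM, lay inside the range of its group. The part of these in its Acta1 was not tested.

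Ranked by mean CPM, Acta1 ran TAC, E13.5, sham, 6 weeks and 16 weeks, and only TAC had no overlap with the next group. With TMM scaling E13.5 stood below sham. Acta2 ran E13.5, 6 weeks, sham, TAC and 16 weeks, and Actg2 ran E13.5, TAC, sham, 6 weeks and 16 weeks. In both, E13.5 alone did not overlap its neighbour. Actc1 ran TAC, 6 weeks, sham, 16 weeks and E13.5, with overlap between all neighbours, and its means spanned 15433 CPM in TAC hearts to 10013 CPM at E13.5.

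The coding genes whose log2 CPM followed each actin most closely over the 27 libraries were listed as a description, out of 10002 genes with a mean of at least 5 CPM. These libraries share groups and depth, so genes that differ between groups lead the lists. Acta1 ran closest to Tnfrsf12a, the receptor of the cytokine TWEAK (Pearson r = 0.884), Nuak1, Rrp12, Uaca and Nlrc3. Acta2 ran closest to Flna, the actin cross-linker filamin A (r = 0.957), Frmd4b, Cd276, Smc3 and Skil. Actc1 ran closest to Parvb, an adhesion protein that binds actin (r = 0.813), Mrps14, Spag7, Ccdc56 and Klhl31, and Actg2 to Crabp1 (r = 0.963), Crmp1, Ckap2l, Pxdn and Ano6.

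Within groups, on deviations from the group means, other genes led. Acta1 ran closest to Adprhl1, a heart-enriched gene (r = 0.901), 2810405K02Rik, Cnksr1, Nppb (r = 0.832) and Wdr62. Without the 2 libraries farthest from the median of Acta1, which were 6-week replicate 2 and 16-week replicate 4, these became 0.698 for Adprhl1 and 0.637 for Nppb. Acta2 ran closest to Rhoc, Spsb4, Numb, Ets1 and Nes (r = 0.741 to 0.766), Actc1 to Spsb4, Thoc3, Tnnc1, the cardiac troponin C, Dhdds and Hsd17b11 (r = 0.738 to 0.771), and Actg2 to Abi3bp, Gdf10, Nfib, Ebf1 and Rgs4 (r = 0.674 to 0.741). Without the 2 libraries farthest from each actin's median these also fell, to 0.532 to 0.623 for Acta2, 0.514 to 0.633 for Actc1 and 0.470 to 0.633 for Actg2.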

How the data were processed

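Per the labels' protocols, oligo(dT)-selected RNA gave single-end libraries that keep no strand. The deposited files hold raw counts per feature on mm9 (NCBIM37), made by the authors. The submitters' processing notes name TopHat 1.3.0, Bowtie, HTSeq, DESeq and edgeR with no roles. The counting mode is not given in the sources used here, nor is the read length. The total line of each file was left out. Each library is taken as 1 heart. The series' design text calls the E13.5 hearts independent and is silent on the others. The p-values therefore assume that the adult libraries come from independent hearts.

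Groups follow the titles, since the embryos' age labels rise from sample to sample while every title gives E13.5. Members and gene lists were chosen with earlier results of these data known. Up to 3 called genes per list and comparison with the largest change were named, and the 5 genes most like each actin. Marker genes of other cells were summed as CPM.

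Counts were tested in R 4.3.3 with edgeR 4.0.16 (filterByExpr minimum count 10, total 15, TMM, robust quasi-likelihood, Benjamini-Hochberg), with DESeq2 1.42.0 as an alternative. The unoperated ages were averaged as one reference, with equal weight. An SE is the log2 fold change divided by the root of its F statistic. Shares used counts per kilobase of exon. Ratios of Acta1 to Actc1 were tested by exact permutation in scipy 1.17.1. Likeness used log2(CPM + 0.5). Scripts were tested on simulated data. Motifs and shared stretches were read from RefSeq GRCm38.p6 promoters and GENCODE transcripts. Alternatives were other scalings, no filter, 1 fit of all libraries, a replicate block and left-out libraries.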

Additional observations from a re-analysis of the deposited data

Results flagged for a closer look

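In each group of 4 to 7 hearts, the highest and lowest library was set against the rest by Dixon's test for the 4 levels and the Acta1 to Actc1 ratio. Of 25 such groups, 3 held a library beyond the 95% critical value, where chance gives about 1 in 20. Acta1 in 16-week replicate 4 was 536 CPM, with the next library at 209 CPM and the lowest at 48.5 CPM. Actg2 in E13.5 replicate 3 was 47.2 CPM, with the next at 23.8 CPM and the lowest at 9.32 CPM. The log2 ratio of Acta1 to Actc1 counts in 6-week replicate 2 was -11.05, with the next lowest at -6.30 and the highest at -5.48.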

How the results depend on the processing

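Acta1, Acta2, Actc1 and Actg2 kept their side of the threshold in all 188 fits that left out 1 library; in 9 of these a difference that was not called turned its sign (Acta1 at E13.5 against unoperated adults and by age, Acta2 and Actg2 in TAC). In the other alternatives 7 of 113 member results lost or gained a call or were reversed. With library totals, added after seeing the data, Acta1 at E13.5 against sham was 0.0707, the reverse of -0.76; features called lower at E13.5 were 2975 against unoperated adults and 3270 against sham, and higher against sham 12690. With 1 fit of all 27 libraries, Acta1 at E13.5 against sham was -0.67 (adjusted p = 0.289), Actc1 in TAC 0.34 (adjusted p = 0.0977) and Acta2 at 16 against 6 weeks -1.17 (adjusted p = 0.0204), and the age comparison called 230 higher and 190 lower. DESeq2 gave Acta2 by age -1.19 (adjusted p = 0.0326). With no filter 12197 features were higher at E13.5 than in unoperated adults, and 219 higher and 289 lower by age. Without libraries against their sex label, Acta2 in TAC was -0.42 (adjusted p = 0.000734), the age calls were 74 higher and 64 lower, and the Acta1 to Actc1 difference was 0.32 at E13.5 against sham and 4.50 in TAC, where 7 against 2 and 2 against 2 hearts cannot pass the threshold.

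Leaving out 1 library, the age comparison called 51 to 207 features higher and 56 to 165 lower, against 137 and 124 with all. The higher count moved by more than 1.5 times without 6-week replicates 4 (81), 5 (75) or 6 (207) and 16-week replicates 1 (72), 3 (51), 4 (63) or 6 (80). The TAC ratio difference ranged between 3.96 and 4.41, and 4 against 3 hearts cannot pass the threshold after adjustment.

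Deviations of same-numbered libraries correlated between -0.19 and 0.244. Different-numbered libraries were not compared in this way, so whether the replicate numbers pair the hearts was not settled. With the number as a replicate block, Actc1 in TAC was 0.30 (adjusted p = 0.0781) and 1749 features were called lower in TAC, and it changed no other member's call. Paired ratio differences were 1.70 at E13.5 against unoperated adults, 0.44 against sham and 4.28 in TAC, each with the smallest p its pairs allow (0.0312, 0.125 and 0.25). Counting with no length moved 5 of 20 isoform shares by more than 1 SD. Depth limits Actg2 in adults, at 1 to 22 counts per library. The cause of these changes was not tested.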
